A study of Sus scrofa with 36 samples.

Results

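NRN1, SFTPD and C1GALT1 are 3 genes whose liver signal was higher in Creole pigs than in Large White pigs. Members were taken as every non-control probe that the scanner tables assign to one of these genes, by gene name, transcript accession or description, and that the scanner scored as well above background on 6 or more of the 36 arrays. This gave 6 probes of the 44796 kept, and 3 genes of the 11472 gene symbols with a kept probe. All 6 member probes passed, and the one nearest to the limit was well above background on 11 arrays. The genes were chosen by their measured CR minus LW difference in these same arrays, so their values by breed are given as a description and no test of breed was made on them. What the choice did not use was tested, namely temperature, the interaction of breed with temperature, and other genes.

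Liver RNA came from 36 castrated male pigs on 1-colour Agilent pig arrays, with 6 animals in each of 6 groups. The breeds were Creole (CR), a local pig of the Caribbean, Large White (LW), a commercial breed, and their F1 crosses. In each breed 6 pigs were sampled at thermoneutrality (TN, 24 °C) and 6 following heat stress (HS) of up to 5 days that the labels give as 30 °C and the growth protocol as 32 °C. The HS pigs were older and slaughtered later than the TN pigs, and these factors cannot be told apart from temperature. Per the study's methods the pigs of each breed were arranged in a few blocks of littermates, which the labels do not give, so animals of a breed share litters and p-values measure only the spread between these animals. In a piece of liver, fewer cells of a type and less RNA per cell cannot be told apart.

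Neuritin, encoded by NRN1, is a small protein held on the cell surface by a glycosylphosphatidylinositol (GPI) anchor and is best known for promoting neurite growth and synapse maturation in the nervous system. Surfactant protein D, encoded by SFTPD, is a collectin, a secreted lectin that binds sugars on microbes. It is best known from the lung, while the liver makes related collectins such as the mannose-binding lectins. C1GALT1 encodes the enzyme that adds galactose to the first sugar of mucin-type O-glycans on secreted and membrane proteins, and its enzyme activity depends on the chaperone encoded by C1GALT1C1. The 3 genes lie on different chromosomes of the Sscrofa11.1 assembly, NRN1 on chromosome 7 (3682568 to 3691328), SFTPD on chromosome 14 (82051400 to 82069258) and C1GALT1 on chromosome 9 (77509342 to 77549545).

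The probes are 60 bases long. NRN1 had 2 of them, SFTPD had 3 and C1GALT1 had 1, and they are lettered here by falling mean signal within a gene. NRN1 probe a and C1GALT1 carry a human transcript accession in the scanner tables, the other NRN1 probe and SFTPD probe c a pig transcript, and SFTPD probe a a pig protein. The last 8 bases of NRN1 probe a are the first 8 of probe b. Neither was placed on a transcript here, and they were not taken as independent. Capitals in the first pair mark the shared bases. In SFTPD probes a and b the capitals mark AATAAA, the usual polyadenylation signal. Those letters occur in 10.3% of the 60305 non-control probes in the direction read here and in 4.32% on the reverse strand, so a match is only a description. SFTPD probe c is shown whole, because it has no AATAAA and no stop codon in 2 of its 3 reading frames, and it starts at base 829 of its transcript. No run of 20 bases of any member probe occurs in another probe of the array on either strand.
NRN1 probe a, last 30 bases: tccaagtccactgccttgatttTTCCCTCT
NRN1 probe b, first 30 bases: TTCCCTCTtgttttagctgttacacataca
SFTPD probe a, first 30 bases: taccaacgtcccAATAAAtaggtgaccttc
SFTPD probe b, bases 25 to 54: cgcctccctcagAATAAAgtacgaaactgg
SFTPD probe c, whole: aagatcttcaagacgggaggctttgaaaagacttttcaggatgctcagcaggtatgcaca
C1GALT1, first 30 bases: ggcagatctatttagcattgtgtgtggatt

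All values are log2 of the quantile-normalized median spot signal, on which a difference of 1 is a doubling, and levels are compared between animals for one probe and never between probes. Per array, 39644 to 44025 of 60306 non-control spots passed the scanner's test against background, and none was saturated. LW animals lay together at one end of the first principal component (18.6% of the variance), except LW TN replicates 1 and 6, while F1 HS replicates 1 and 2 and F1 TN replicate 3 lay toward LW. These 5 animals were kept under their labels, and counts are also given without them. Of the hepatocyte list 11 of 15 genes had a kept probe, ALB and TTR among them. Between CR and LW, 1 of the 11 was higher, HNF4A by 0.36, with 2 of its 6 kept probes called. Another 3 were lower, FGG with a difference of -0.40, FGB with -0.20 and APOA1 with -0.12, each called at all of its kept probes. Of the list 36.4% were called, against 26.0% of all genes (limma). The part of these genes in the values of the 3 members was not tested.

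NRN1 was high in every CR animal, low in most LW animals and mixed in F1. At probe a the LW TN animals ran from 5.81 to 8.34 with a median of 6.80, and the LW HS animals from 5.70 to 10.58 with a median of 6.39. The CR TN animals ran from 9.84 to 11.59 with a median of 10.57, and the CR HS animals from 8.96 to 11.83 with a median of 9.91. CR and LW overlapped through a single animal, LW HS replicate 5 at 10.58, since the next highest LW animal was at 8.34 and the lowest CR animal at 8.96.

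F1 animals had NRN1 values in the ranges of both parental breeds. The F1 TN animals ran from 6.999 to 11.04 with a median of 9.94, and the F1 HS animals from 5.80 to 10.79 with a median of 9.37. Of the 12 F1 animals, 9 were at or above the lowest CR animal, and the other 3 were TN replicate 4 at 6.999 and HS replicates 1 and 2 at 5.80 and 7.08. HS replicates 1 and 2 are also the F1 HS animals that lay toward LW on the first component. Without the 5 animals that lay apart, 8 of 9 F1 and 1 of 10 LW animals were at or above the lowest CR animal.

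Over 12 animals each, probe a of NRN1 had a mean of 7.09 ± 1.43 in LW, 9.14 ± 1.63 in F1 and 10.39 ± 0.819 in CR (SD). CR exceeded LW by 3.29 (standard error 0.518), which is 9.79-fold, and F1 exceeded LW by 2.04. Probe b was detected above background on 32 of 36 arrays. It differed by 2.62 between CR and LW and followed probe a closely over the 36 animals (Pearson's r = 0.990). The 4 arrays on which it was not well above background were 3 of LW and 1 of F1. The CR minus LW value at probe a ran from 2.41 to 4.46 over the 5 slides, each with 1 to 3 CR and 2 or 3 LW animals. The highest was on slide 1, with 1 CR animal. Values by slide come from the arrays that chose the genes and are a description.

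SFTPD was either high or near the bottom of its range, with few values between. At probe a every LW animal was low, the LW TN animals running from 5.92 to 6.68 with a median of 6.33 and the LW HS animals from 5.96 to 6.26 with a median of 6.13. The CR TN animals ran from 6.25 to 11.89 with a median of 9.87, and the CR HS animals from 6.06 to 11.60 with a median of 8.64. The widest step between neighbouring animals in the order of this probe was 2.30, from 7.23 to 9.53, and the next widest was 0.66. Of the animals above that gap, 7 were CR, 3 were F1 and none was LW, out of 12 in each breed. The high CR animals were TN replicates 2, 3, 5 and 6 and HS replicates 1, 4 and 6, and the other 5 CR animals lay between 6.06 and 6.79, in the range of LW apart from the highest of them.

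In F1 the 3 animals above the SFTPD gap were TN replicates 3, 4 and 5, at 10.40, 10.19 and 11.01. The F1 TN animals ran from 5.87 to 11.01 with a median of 8.22. No F1 HS animal was above the gap, and these 6 ran from 6.01 to 7.23 with a median of 6.16. The highest F1 HS values, 6.99 and 7.23, belonged to replicates 1 and 2. Without the 5 animals that lay apart, 7 of 12 CR, 2 of 9 F1 and 0 of 10 LW animals were above the gap.

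The 3 SFTPD probes separated the same 10 animals from the other 26. At probe b these 10 lay between 7.76 and 9.22 and the others between 6.38 and 6.85. At probe c the same 10 lay between 6.86 and 8.73 and the others between 4.75 and 5.72. Probe c was well above background in these 10 animals and in 1 more, LW TN replicate 4 at 5.72, which was not raised at the other probes. Pearson's r between the probes over 36 animals was 0.981 for a with b, 0.981 for a with c and 0.985 for b with c. The split was thus seen at 3 probes that share no run of 20 bases. Shorter shared runs were not looked for, and probes a and b were not placed on a transcript. Whether the 3 probes read separate stretches was therefore not tested.

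**Figure D1:**
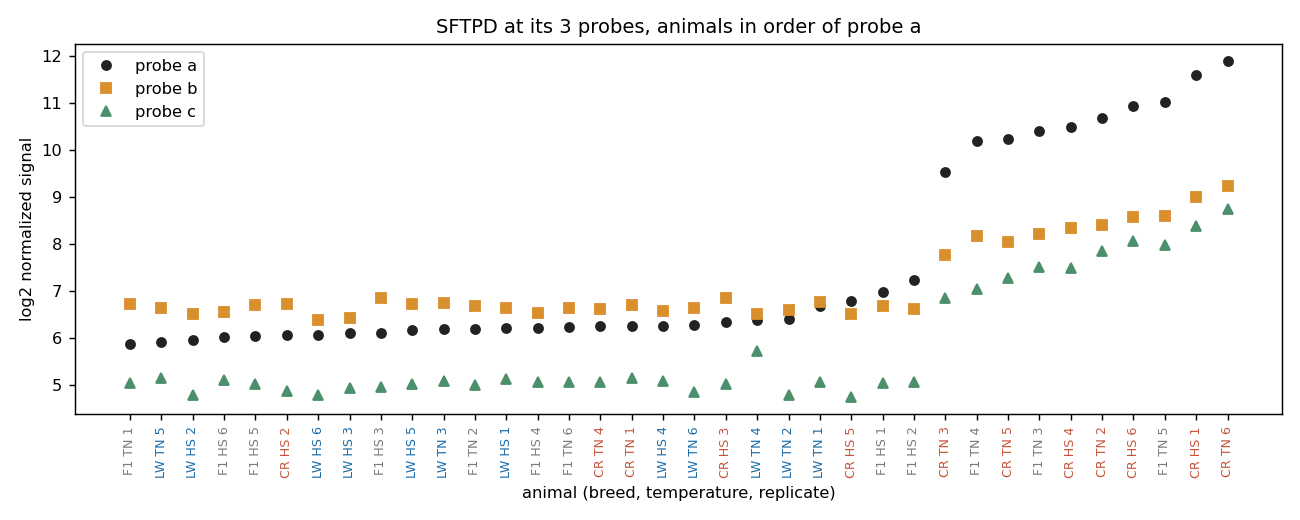
SFTPD log2 normalized signal at its 3 probes (vertical axis) in each of 36 animals (horizontal axis, in order of probe a, names coloured blue for LW, grey for F1 and red for CR). The 10 animals at the right, 7 CR and 3 F1, are raised at every probe, and at probe a they start at 9.53 where the other 26 end at 7.23.

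Because each breed mean mixes high and low animals, the SFTPD means have a wide spread outside LW. Probe a had a mean of 6.22 ± 0.209 in LW, 7.37 ± 1.96 in F1 and 8.92 ± 2.36 in CR (SD, n = 12). CR exceeded LW by 2.70 (standard error 0.674) at probe a, by 1.14 at probe b and by 1.59 at probe c. The size of the CR minus LW value therefore depended on the probe. For probe c no LW HS array was well above background, and the CR HS mean, with 3 of 6 arrays well above background, was at least 2.51-fold higher than that of LW HS. For this bound each dim array took the higher of its own signal and the lowest detected signal on that array. Within single slides the CR minus LW value at probe a ran from 1.22 to 5.06, the highest on slide 1 with 1 CR animal. Between 1 and 4 animals above the gap were found on each slide.

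C1GALT1 was not well above background in most LW and F1 animals and well above it in 11 of 12 CR animals. The LW TN animals ran from 4.89 to 5.00 with a median of 4.95, and none was well above background. The LW HS animals ran from 4.92 to 5.69 with a median of 5.06, and only replicate 6, the highest, was well above background. The CR TN animals ran from 8.07 to 9.10 with a median of 8.55, all well above background. The CR HS animals ran from 4.80 to 9.45 with a median of 8.22, and replicate 5 was the one at 4.80, not well above background and slightly under the lowest LW animal at 4.89. The TN animals of CR and LW thus did not overlap, whereas those of HS did.

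F1 animals at C1GALT1 were mostly at the LW level. The F1 TN animals ran from 4.74 to 5.18 with a median of 4.93, none well above background. The F1 HS animals ran from 4.88 to 9.44 with a median of 5.39, and 3 of 6 were well above background, of which replicates 5 and 6, at 9.44 and 8.95, were as high as CR and replicate 2 was at 5.40. The widest step between neighbouring animals was 2.09, from 5.69 to 7.79, with 11 CR, 2 F1 and no LW animals above it. None of the 5 animals that lay apart was among them.

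The breed means of C1GALT1 were 5.05 ± 0.224 in LW, 5.72 ± 1.64 in F1 and 8.19 ± 1.17 in CR (SD, n = 12). CR exceeded LW by 3.14 (standard error 0.453). F1 minus LW was 0.68 over all animals, -0.01 among TN animals, where no array of either group was well above background, and 1.36 among HS animals. Leaving out F1 HS replicate 5 gave 0.35 over all animals, and leaving out replicate 6 of that group gave 0.39, these being the 2 F1 pigs with high C1GALT1. The fitted values are no bound where a group is not well above background. CR minus LW within single slides ran from 1.89 to 4.50, the highest on slide 1 with 1 CR animal. With a single probe, no second stretch of C1GALT1 sequence was measured here.

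**Figure D2:**
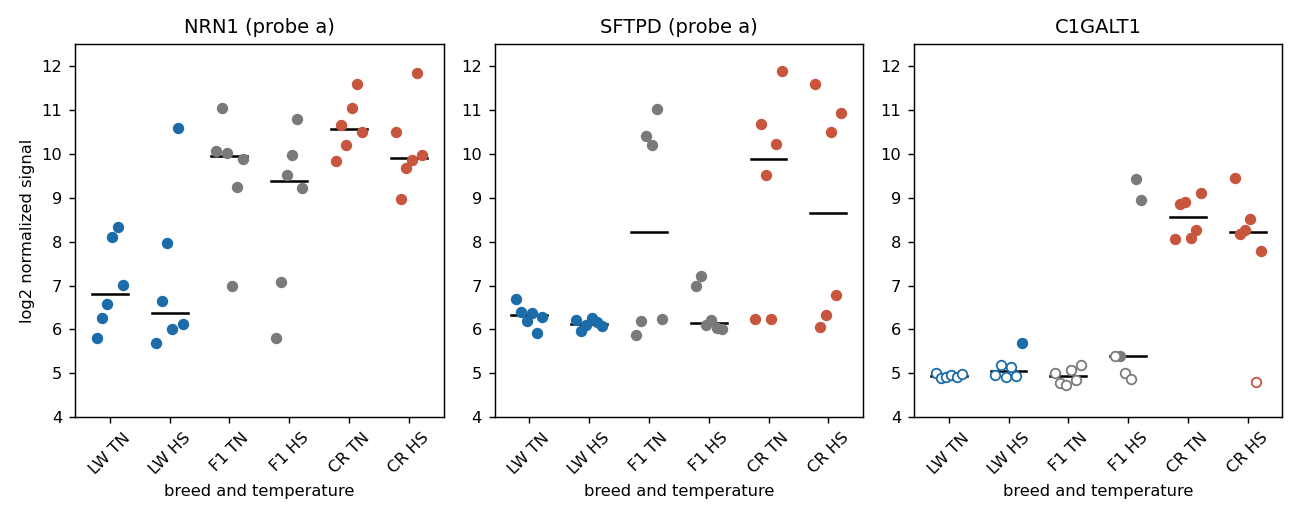
Log2 normalized signal (vertical axis) of NRN1 probe a, SFTPD probe a and C1GALT1 in each animal of the 6 groups (horizontal axis), with filled points well above background, open points not, and a bar at the group median. NRN1 is at or above 8.96 in all CR animals, SFTPD splits CR into 7 high and 5 low animals, and C1GALT1 is high in 11 of 12 CR animals and in 2 of 12 F1 animals.

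Steps as wide as those of SFTPD probe a and C1GALT1 were rare on the array. Counting steps with at least 6 animals on either side over the 44723 kept probes measured on every array, 0.0425% had one at least as wide as SFTPD probe a and 0.0559% one at least as wide as C1GALT1, where the median probe had a widest step of 0.06. For NRN1 probe a, whose widest step was 0.89, the share was 0.23%. These shares describe the chosen genes and are not a test.

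High SFTPD and high C1GALT1 were set side by side in each animal. All 7 CR animals above the SFTPD gap were also above the C1GALT1 gap, as were 4 of the 5 CR animals below it, and 1 CR animal, HS replicate 5, was below both. That animal had the highest NRN1 value of all, 11.83. In F1 the 3 animals above the SFTPD gap and the 2 above the C1GALT1 gap were different animals, and 7 were above neither. No coefficient is given between the members over all animals, because the values of SFTPD and C1GALT1 fall into separate clusters.

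The second question was whether the 3 genes differed between HS and TN animals. With breed in the model, none of the 6 member probes passed (limma, Benjamini-Hochberg adjusted over 44796 probes), where 385 of all probes did (0.859%). NRN1 probe a differed by -0.39 between HS and TN (95% interval -1.25 to 0.47, adjusted p = 0.783). SFTPD probe a differed by -0.83 (95% interval -1.95 to 0.28, adjusted p = 0.567). C1GALT1 differed by 0.35 (95% interval -0.40 to 1.1, adjusted p = 0.772). All 3 intervals include 0 and reach to more than 1 log2 unit on one side, so they do not show that the genes were alike at both temperatures.

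The temperature differences were largest within F1. SFTPD probe a was lower in F1 HS than in F1 TN by 1.89 on the log2 scale (a difference of -1.89, 95% interval -3.83 to 0.05, unadjusted p = 0.0562, limma adjusted p = 0.551). Probes b and c differed by -0.85 and -1.23 in F1, with unadjusted p of 0.0365 and 0.0465 and limma adjusted p of 0.492 and 0.526. C1GALT1 was higher in F1 HS than in F1 TN by 1.57 (95% interval 0.36 to 2.78, unadjusted p = 0.0127, limma adjusted p = 0.385). These intervals and p-values use 1 spread per probe, shared by all 6 groups, and the groups differed in spread. The SD of C1GALT1 was 0.175 in F1 TN and 2.09 in F1 HS, and that of SFTPD probe c 1.38 and 0.05. The shared spread therefore does not describe the spread within F1. The F1 values rest on the 3 TN animals with high SFTPD and the 2 HS animals with high C1GALT1. None of them passed after adjustment, where 4 of all probes (0.00893%) did within F1 and 9.31% had an unadjusted p under 0.05.

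Within LW and within CR the members differed less between temperatures. No probe of the array passed within LW or within CR, and 5.12% and 7.4% of probes had an unadjusted p under 0.05 (limma). The differences within LW lay between -0.18 for SFTPD probe a and 0.39 for NRN1 probe b. Within CR they ran from -0.71 for C1GALT1 to -0.13 for SFTPD probe b, the value of C1GALT1 including HS replicate 5. The interaction of breed with temperature had an unadjusted p of 0.648 for NRN1 probe a, 0.405 for SFTPD probe a and 0.0348 for C1GALT1, and an adjusted p of 0.995 for each (limma moderated F test). No probe of the array passed for the interaction, and 3.74% had an unadjusted p under 0.05. A difference between breeds in the temperature response of these genes was not detected with this number of arrays.

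**Figure D3:**
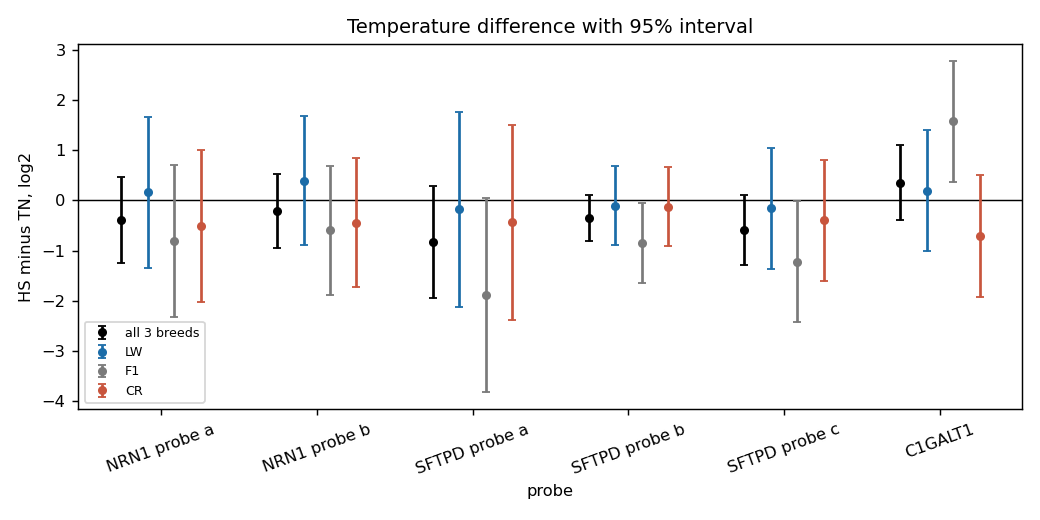
HS minus TN difference in log2 signal (vertical axis) for the 6 member probes (horizontal axis), over all 3 breeds in black and within LW, F1 and CR in colour, with points for the estimate and bars for its 95% interval from limma. All intervals include 0 except those of SFTPD probes b and c and C1GALT1 within F1, none of which passed after adjustment.

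SFTPD sits in the collectin gene cluster, and the neighbouring genes were compared between CR and LW. Of the 5 nearest genes with a kept probe on each side, 3 of 10 passed (limma adjusted over all probes), 2 higher and 1 lower in CR, where 26.0% of all genes did. MBL1, which encodes a mannose-binding lectin and lies 10.97 kb from SFTPD (chromosome 14, 82080232 to 82085174), was lower in CR, at 11.63 ± 0.628 against 12.25 ± 0.258 in LW (SD, n = 12), a difference of -0.62 (adjusted p = 0.00507). SFTPA1, encoding surfactant protein A and 21.9 kb away (82091178 to 82095393), was higher in CR by 0.71 (adjusted p = 0.00686), at both of its kept probes. MAT1A, which encodes a methionine adenosyltransferase of the liver and lies 40.1 kb away, was higher by 0.20 (adjusted p = 0.0122). The calls of MBL1 and SFTPA1 were kept in all 52 other fits, and that of MAT1A was lost in 4. PPIF, ZCCHC24, ANXA11, PLAC9, TMEM254, FAM213A and TSPAN14 did not pass, with differences of -0.17 to 0.18. None of the 10 passed for HS minus TN, where 0.933% of all genes did.

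MBL1 was also the gene least like SFTPD over the animals. Among 11453 genes measured on every array, by their representative probes, MBL1 had the lowest Pearson's r with SFTPD probe a, -0.81 over the 36 animals and -0.75 after the mean of each group was removed, and it was -0.76 and -0.73 for SFTPD probes b and c after group means were removed. These coefficients describe animals in 2 clusters and carry no p. The 7 CR animals above the SFTPD gap had MBL1 between 10.24 and 11.61, and the 5 CR animals below it between 11.78 and 12.44, without overlap. In F1 the 3 animals above the gap had MBL1 between 11.50 and 12.02 and the 9 below it between 11.92 and 12.63, with overlap. The 12 LW animals, all below the gap, ran from 11.70 to 12.51. The lowest MBL1 values of all, 10.24 and 10.93, were those of CR TN replicate 6 and CR HS replicate 1, the animals with the highest SFTPD at 11.89 and 11.60.

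Within the cluster of 10 animals above the gap, MBL1 fell as SFTPD rose with Pearson's r = -0.74 (permutation p = 0.0144, adjusted p = 0.216 over 30 relations between a member and its neighbours) and Spearman's rho = -0.59 (permutation p = 0.0804, adjusted p = 0.482). Pearson's r was -0.88 without the 2 animals farthest from the median of SFTPD. Among the 26 animals below the gap r was -0.41 (permutation p = 0.0367, adjusted p = 0.367) and rho was -0.37 (permutation p = 0.0622, adjusted p = 0.482), and r was -0.31 without the 2 farthest. Both clusters mix breeds and temperatures, and group means were not removed for these r and rho. None of the 30 relations passed after adjustment. The smallest permutation p of Pearson's r was not that of MBL1 but of PLAC9 below the gap. There r was 0.59 (permutation p = 0.00205, adjusted p = 0.0615), and 0.30 without the 2 farthest. For TSPAN14 above the gap rho was 0.65 (permutation p = 0.0494, adjusted p = 0.482). SFTPA1 showed r = -0.25 above and 0.07 below the gap, and its values ranged from 8.37 to 10.29 in the animals above and from 8.32 to 10.48 in those below. Over all 36 animals with group means removed, r with SFTPD was -0.48 for SFTPA1, -0.42 for ANXA11 and -0.41 for ZCCHC24. For the neighbours other than these and MBL1 it lay between -0.22 (TSPAN14) and 0.32 (PPIF). The MBL1 values have a single kept probe behind them.

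**Figure D4:**
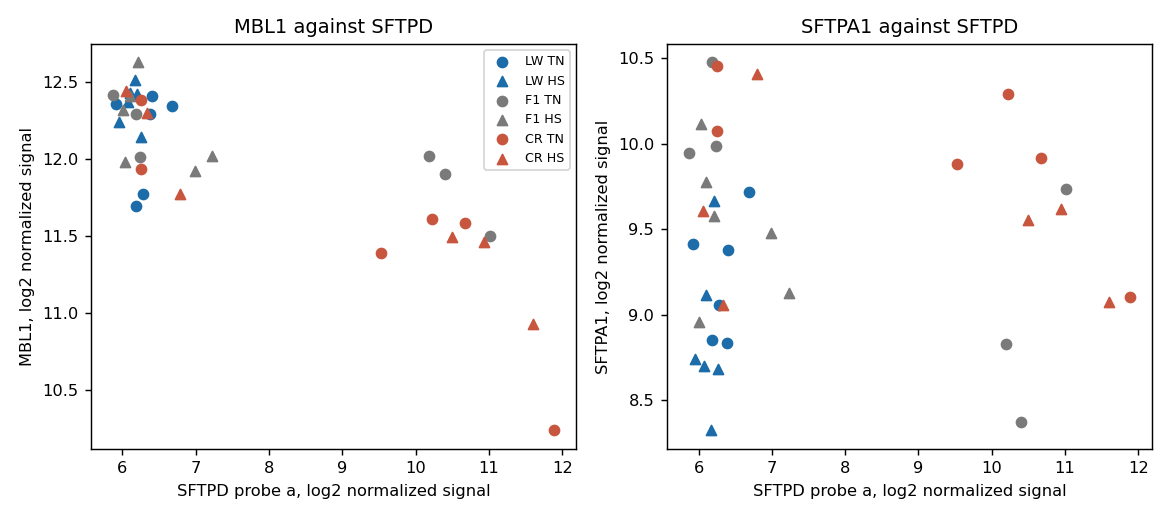
Log2 normalized signal of MBL1 (left) and SFTPA1 (right) on the vertical axes against SFTPD probe a on the horizontal axes, 1 point per animal, with colour for breed and shape for temperature. MBL1 is between 10.24 and 12.02 in the 10 animals with SFTPD above 9 and between 11.70 and 12.63 in the other 26, while SFTPA1 runs from 8.37 to 10.29 in the former and from 8.32 to 10.48 in the latter.

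For NRN1, 5 of the 10 nearest genes passed between CR and LW, against 26.0% of all genes. FARS2, a mitochondrial phenylalanyl-tRNA synthetase gene 125 kb away, was higher in CR by 0.26 (adjusted p = 0.00263), ECI2, an enoyl-CoA isomerase gene, by 0.64 (adjusted p = 0.00325), and CDYL, a chromatin corepressor gene, by 0.19 (adjusted p = 0.0102). LY86, which is expressed in macrophages and B cells, was lower by 0.63 (a difference of -0.63, adjusted p = 9.87e-05). F13A1, the coagulation factor XIII A chain gene and the nearest neighbour at 59.96 kb, differed by -0.64 (adjusted p = 0.0469), a call lost in 33 of 52 other fits. The call of ECI2 was lost without slide 3 and that of CDYL without slide 3 or slide 4. RPP40, LYRM4, RREB1, SSR1 and RIOK1 did not pass. With group means removed, r between NRN1 and the 10 genes lay between -0.31 and 0.30, the smallest adjusted permutation p of Pearson's r being 0.390.

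The neighbours of C1GALT1 differed little. Of 10, MIOS was lower in CR by 0.26 (a difference of -0.26, adjusted p = 0.00214, lost without slide 4) and PHF14 by 0.15 (a difference of -0.15, adjusted p = 0.0458, lost in 22 of 52 other fits), and none was higher, where 26.0% of all genes passed. ASNS, the asparagine synthetase gene and the nearest at 173 kb, differed by -0.19 (adjusted p = 0.206). SLC25A13, SEM1, DLX6, DLX5, GLCCI1, NDUFA4 and TMEM106B lay between -0.09 and 0.02. Over all 3 members, 10 of 30 neighbours passed, 5 higher and 5 lower, against 26.0% of all genes.

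**Figure D5:**
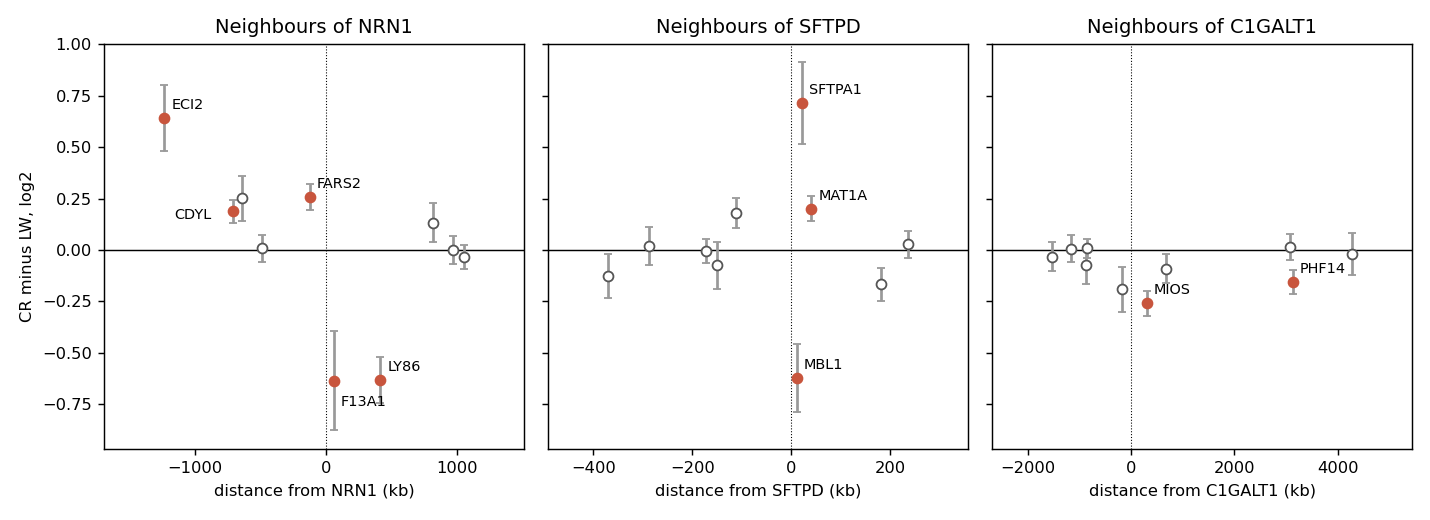
CR minus LW difference in log2 signal (vertical axis) of the 10 nearest genes with a kept probe around each member, against their distance from it in kb (horizontal axis, members at 0), with bars for the standard error, filled points for an adjusted p under 0.05 and open points for the rest. The differences run from -0.64 to 0.71. The members were chosen for their own difference, so its size is not compared with these.

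The other genes of mucin-type O-glycan synthesis moved both ways. Of 36 listed genes besides C1GALT1, 18 had a kept probe, and between CR and LW 3 were higher and 5 lower (44.4%, against 26.0% of all genes), with a median difference of -0.08 against -0.01 over all genes. C1GALT1C1, which encodes the chaperone that C1GALT1 needs, was lower in CR by 0.40 at its representative probe (a difference of -0.40, adjusted p = 0.000610) and by 0.41 at its second one, and the call was kept in all 52 other fits. GALNT16, one of the enzymes that add the first sugar, differed by -0.36 (adjusted p = 0.00834) and ST3GAL1, which caps core structures with sialic acid, by -0.33 (adjusted p = 0.00804). B4GALT5, a galactosyltransferase gene, was higher by 0.44 (adjusted p = 0.00828), ST6GALNAC6, a sialyltransferase gene, by 0.37 (adjusted p = 0.000355) and GALNTL6 by 0.31 (adjusted p = 0.0198). The calls of B4GALT5, GALNTL6 and GALNT16 were lost without slide 3 and that of ST3GAL1 without slide 2. None of the 18 passed for HS minus TN, where 0.933% of all genes did.

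Among collectins, ficolins, their proteases, surfactant genes and related genes, more were lower than higher in CR. Of 20 listed genes besides SFTPD, 14 had a kept probe, 2 were higher and 6 lower in CR than in LW, with a median difference of -0.17 (57.1% called in either direction, where 11.8% of all genes were higher and 14.2% lower). The 6 lower genes include CD93, a membrane receptor gene (-0.45, limma adjusted p = 0.000550), and LPCAT1, a lipid acyltransferase gene (-0.21, adjusted p = 0.0318). COLEC11, another collectin of the liver, was lower by 0.65 (a difference of -0.65, adjusted p = 1.78e-05). FCN2, a ficolin gene, differed by -0.54 (adjusted p = 0.0108), called at all 3 of its kept probes but not without slide 3. MASP2, a protease gene of the lectin pathway of complement, was higher by 0.35 (adjusted p = 0.0368) at 1 of its 3 kept probes, and this call was lost in 13 of 52 other fits. MBL2, the other mannose-binding lectin gene, also varied strongly between animals, from 9.95 to 15.14 in LW, 9.64 to 14.85 in CR and 10.38 to 14.14 in F1, and did not pass (difference 1.41, adjusted p = 0.0979). SFTPB and SFTPC, which mark the lung alveolus, had no kept probe. None of the 14 genes passed for HS minus TN, where 0.933% of all genes did.

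The neurotrophin and activity-response genes, the setting in which neuritin is best known, were compared next. Of 28 listed besides NRN1, 19 had a kept probe and 2 were higher and none lower in CR than in LW (10.5% called, against 26.0% of all genes). JUN, an immediate early gene, was higher by 0.58 (limma adjusted p = 0.00268), called at both of its kept probes. IGF1R, the receptor of insulin-like growth factor, was higher by 0.39 (adjusted p = 0.00298), called at 1 of its 3 kept probes. At the representative probes both calls were kept in all 52 other fits. BDNF and the receptor genes NTRK2 and NTRK3 differed by -0.10 to 0.01 and did not pass. NRN1L, the closest relative of NRN1 on the list, had no kept probe. None of the 19 passed for HS minus TN, where 0.933% of all genes did.

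Genes of the GPI anchor, the kind of anchor neuritin carries, moved both ways. All 24 on the array of 30 listed had a kept probe, and 7 were higher and 8 lower in CR than in LW, with a median difference of -0.08 (62.5% called, against 26.0% of all genes). Of the 7 higher, GPLD1 (0.49, limma adjusted p = 0.00134) encodes a phospholipase that cleaves the anchor. DPM1, a dolichol-phosphate mannose synthase gene, was higher by 1.43 (adjusted p = 1.44e-05), with 3 of 5 kept probes called, PIGL by 1.04 (adjusted p = 0.000158) and PIGY by 0.73 (adjusted p = 0.0230), which lost its call without slide 2 or slide 3. PIGP differed by -0.48 (adjusted p = 0.00296, lost without slide 3), PIGX by -0.40 (adjusted p = 0.000196) and PIGK by -0.35 (adjusted p = 0.00134). None of the 24 passed for HS minus TN, where 0.933% of all genes did.

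Markers of some other liver cells also differed between CR and LW. Of the macrophage list, 7 of 9 genes with a kept probe were lower in CR and none higher, of the endothelial list 7 of 8 were lower, and of the lymphocyte list 7 of 12 were lower, where 14.2% of all genes were lower. CD163, a macrophage scavenger receptor gene, differed by -1.15 (adjusted p = 1.86e-08). Their part in the values of the 3 members was not tested. Of the cholangiocyte list, 1 of 12 was higher and 1 lower, against 11.8% and 14.2% of all genes. Of the stellate and fibroblast list 1 of 11 was higher and none lower, and of the erythroid list none of 6 passed. The summed linear signal of the 12 cholangiocyte genes was 7011 to 9530 in the animals above the SFTPD gap and 7064 to 12245 in those below. The 5 lung alveolar genes with a kept probe summed to 4022 to 5981 above the gap and 3536 to 6613 below. Of these 5, 1 was higher in CR than in LW, SFTPA1, and none lower. Of the neuronal list 6 genes had a kept probe and none passed for CR minus LW, against 26.0% of all genes. The macrophage list summed to 101561 to 133324 above the gap and 104572 to 168567 below, and the endothelial list to 19697 to 29543 above and 23101 to 39702 below. Such sums weigh the brightest gene of a list most. For macrophages this was CD5L, with a mean of 16.29 in LW and 16.41 in CR (limma adjusted p = 0.260). It was CLEC4G for the endothelial list (14.70 in LW and 14.12 in CR) and ABCA3 for the lung list (11.87 and 11.90). The ranges of all 4 sums overlapped, but the medians of both lists were lower above the gap, 125293 against 138953 for macrophage and 23871 against 33354 for endothelial genes. Split by the C1GALT1 gap, the medians were 122780 against 138607 and 23842 against 34276. Above the SFTPD gap were 7 CR, 3 F1 and no LW animals, and above the C1GALT1 gap 11 CR, 2 F1 and no LW animals. Both splits therefore largely follow breed, and the medians were not compared within a breed.

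By a fixed rule, the genes most like each member were named, by Pearson's r of the representative probes over the 36 animals among 11453 genes and with no test. For NRN1 these were SRRT (0.77), NUDT14 (0.76), CCDC81 (0.73), DAPK1 (0.72) and HUWE1 (0.72), and the least alike were TSPAN6 (-0.73) and DAP (-0.72). For SFTPD they were PRDX1 (0.73), DDX18 (0.69), SLC22A2 (0.69), KYAT3 (0.67) and GLOD5 (0.66), with MBL1 and GBP4 (-0.69) least alike. For C1GALT1 they were USF1 (0.83), NPSR1 (0.79), DMD (0.72), MEG3 (0.72) and WDR3 (0.70), with KDR and ZNRF2 least alike (both -0.78).

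USF1, a transcription factor gene, followed C1GALT1 in part. It lay between 6.69 and 6.93 in LW and between 7.23 and 8.60 in CR, without overlap, and in F1 it was 7.73 and 8.18 in the 2 animals above the C1GALT1 gap and 6.52 to 7.64 in the other 10. In the CR animal with C1GALT1 not well above background, USF1 was 7.91, within the range of the other CR animals. Of the 5 kept USF1 probes, 2 differed by 1.21 and 1.14 between CR and LW, 2 by 0.50 and 0.47, and 1 by -0.01 (adjusted p = 0.965), so the probes disagreed.

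These coefficients include the breed difference, which the choice of members used. After the mean of each group was removed, the most alike genes were others, among them GNLY, UBE2J2, MPP1, IKBKG and CLEC18A for NRN1 (0.68 to 0.63), SGPL1, SUMF2, ATP5J2, ACP1 and ATE1 for SFTPD (0.69 to 0.66) and SLC51B, RFC1, TMEM57 and C9orf72 for C1GALT1 (0.63 to 0.59). MBL1 was the least alike gene of SFTPD in both measures. For SRRT the second kept probe had an r of -0.06 with NRN1, against 0.77 for the representative one.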

How the data were processed

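Liver RNA of 36 pigs was measured on 1-colour Agilent arrays. The authors deposited scanner tables written by Agilent Feature Extraction 10.10.1.1, whose spot intensity values are linear and not normalized, with detection flags, and a table of log2 values for 42051 probes, quantile normalized per their methods and here found centred by probe. Here the median signal was log2 transformed and quantile normalized over 60306 non-control spots, 107 flagged spots were set missing, and probes detected above background (the scanner's flag) on 6 or more of 36 arrays were kept, 44796 of 60305. The study's methods name the log2 step last. The model was fitted in limma 3.58.1 (R 4.3.3) with breed and temperature as fixed effects, and the interaction and within-breed contrasts in a model of 6 group means (two-sided, Benjamini-Hochberg, threshold 0.05). Pen, slaughter day and parents, random effects in the study's model, are not in the labels. A gene is represented by the brightest of its kept probes. Positions are those of the RefSeq table for Sscrofa11.1. Permutation tests used 100000 resamples and were two-sided. The text names all member probes, up to 3 higher and 3 lower called genes per list, the 10 nearest genes of each member, and the genes of highest and lowest r. Some genes that the rule names are not reported here. MBL2, GPLD1, CD93, LPCAT1, the genes of the marker lists and the genes that did not pass were added after their values were seen. Members and lists were chosen with earlier results of these data known. The fitting was checked on simulated data. Alternatives were other signals, normalizations and filters, slide, position, array weights, spread, probes, and left-out arrays, slides and animals.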

Additional observations from a re-analysis of the deposited data

Results flagged for a closer look

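The lowest and highest animals were set against the rest of their group in 36 checks (6 member probes by 6 groups), and 2 animals stood out, where chance gives about 1 in 20, or 1.8. Both were at C1GALT1. CR HS replicate 5 was lowest at 4.80 (gap over range 0.642), and LW HS replicate 6 was highest at 5.69 (gap over range 0.638). The CR animal was not well above background and the LW animal was. No animal stood out at NRN1 or SFTPD.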

How the results depend on the processing

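HS minus TN did not pass for any member under any of 52 to 55 alternatives per gene, and its sign held, between -0.70 and -0.12 for NRN1, -1.07 and -0.36 for SFTPD, and 0.06 and 0.82 for C1GALT1. The two-sided permutation of temperature within breed gave p = 0.395 for NRN1, 0.168 for SFTPD and 0.333 for C1GALT1. The smallest limma adjusted p over all these was 0.411. The interaction passed for no member (smallest unadjusted p = 0.00562, for C1GALT1 with array weights, adjusted p = 0.988). CR minus LW stayed above 0 for each member. With the processed signal C1GALT1 differed by 5.89 for CR minus LW and by -4.50 for F1 minus CR, and F1 minus CR was -3.61 in TN and -1.32 in HS animals alone. F1 minus LW of C1GALT1 was -0.0102 in TN animals alone, with no array of either group well above background, so that its sign carries no direction, and 0.35 to 0.77 with single arrays left out. Leaving out single arrays moved CR minus LW between 3.14 and 3.64 for NRN1, 2.41 and 2.99 for SFTPD and 3.04 and 3.47 for C1GALT1.

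Called genes in the lists for CR minus LW fell without slide 3 to 4 of the O-glycan genes, 5 of the collectin and surfactant genes and 6 of the GPI anchor genes, and the called neighbours to 6 without slide 3 and 6 without slide 4. Each such fit has fewer animals. Calls over all 44796 probes also fell, from 11856 to 5688 without slide 3 and to 7893 without slide 4. All other alternatives kept the counts of the lists and neighbours within 1.5 times, and the HS minus TN counts of the lists stayed at 0. C1GALT1, well above background on 15 arrays, gave no value when probes had to be so on all arrays, and was not well above background in most LW and F1 animals. The planned correlations between members were not given because the animals fall into clusters. No paired analysis was possible because the labels carry no replicate numbers that pair animals across groups.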
